A study of Mus musculus with 6 samples.

Results

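The ubiquitin-specific proteases (USPs) were examined in MII oocytes of aged mice that had been matured in vitro (IVM) with or without quercetin, a plant flavonol. The family was taken by name, as the protein-coding mouse genes whose symbol is Usp followed by a digit. This rule gave 56 genes of the 53465 in the count table. One of the 56, Usp6nl, encodes a GTPase-activating protein with a TBC domain and is not a protease, and it was kept because the name rule includes it.

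RNA was sequenced from 6 pools of MII oocytes of Kunming (KM) females aged 9 to 10 months. The 3 control pools came from oocytes matured without quercetin and the 3 quercetin-treated pools from oocytes matured with 10 μM quercetin. Each pool held 15 oocytes from 3 mice, so a pool averages over animals of an outbred stock. No source used here says whether the control medium held the solvent of quercetin. Libraries were made with a Smart-seq kit that primes on poly(A) tails, so the amount of an mRNA and the length of its tail cannot be told apart, and a value gives a share of a library, not an amount per oocyte.

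Ubiquitin is a small protein that is attached to lysines of other proteins, alone or in chains. USPs are cysteine proteases that cut it off again, and so set how long a target lives, where it goes in the cell or how its partners read it. A mature oocyte makes almost no new mRNA and depends on stored maternal transcripts, on regulated protein degradation for its exit from meiosis, and on the ubiquitin pool that it passes to the embryo. Most USPs share a catalytic core that opens with a short Cys box, which carries the active-site cysteine.

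The Cys box was located in the reference transcripts of GENCODE M21 (GRCm38) by a profile of 18 residues, and its 54 coding bases were read for each member. These letters belong to the reference strain, not to the KM mice. The profile was built from the 33 members that hold Gly-Asn-Thr-Cys, so their cysteine was fixed by the method. In the others the best match was taken, and the profile favours a cysteine there. At the cysteine position of the best match, 54 of the 56 members had a cysteine codon, TGC in 32 and TGT in 22. The 2 exceptions were Usp39 and Usp6nl. The boxes printed here are those of the 3 members that the comparison of the groups turns on (Usp13, Usp39 and Usp50, with Usp5 and Usp8 beside them), of 7 of the 8 members highest in level, and of the paralogues Usp4 and Usp11, Usp46 and Usp12, and Usp45 and Usp16, each 5′ to 3′ on the coding strand with the codon at the cysteine position in capitals.
Usp13: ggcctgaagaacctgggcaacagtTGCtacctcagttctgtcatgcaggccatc
Usp5: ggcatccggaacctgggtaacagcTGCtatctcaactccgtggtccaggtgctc
Usp39: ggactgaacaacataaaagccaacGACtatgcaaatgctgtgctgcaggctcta
Usp50: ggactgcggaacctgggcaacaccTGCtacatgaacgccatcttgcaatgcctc
Usp8: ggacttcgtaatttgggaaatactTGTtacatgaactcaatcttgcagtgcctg
Usp2: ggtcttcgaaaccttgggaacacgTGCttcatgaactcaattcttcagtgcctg
Usp28: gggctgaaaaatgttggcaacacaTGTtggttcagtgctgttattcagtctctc
Usp15: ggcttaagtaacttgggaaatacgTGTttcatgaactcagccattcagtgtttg
Usp7: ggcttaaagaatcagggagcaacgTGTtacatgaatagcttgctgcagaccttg
Usp9x: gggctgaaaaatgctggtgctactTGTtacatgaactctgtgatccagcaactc
Usp19: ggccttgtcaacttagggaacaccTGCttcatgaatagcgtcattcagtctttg
Usp1: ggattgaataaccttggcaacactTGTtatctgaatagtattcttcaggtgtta
Usp4: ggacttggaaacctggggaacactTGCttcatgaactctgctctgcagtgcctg
Usp11: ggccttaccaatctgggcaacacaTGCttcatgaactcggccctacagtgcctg
Usp46: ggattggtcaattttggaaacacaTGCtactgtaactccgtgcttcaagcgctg
Usp12: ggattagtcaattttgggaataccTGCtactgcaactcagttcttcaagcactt
Usp45: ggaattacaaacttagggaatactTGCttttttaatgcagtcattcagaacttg
Usp16: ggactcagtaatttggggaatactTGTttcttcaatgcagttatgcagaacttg

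Usp39, which acts in splicing as part of the tri-snRNP, had GAC, an aspartate codon, at residue 233 of 564. Its box lay at chr6:72336480-72337749 on the minus strand and was split between exons 5 and 6 of 13. The box of Usp13 lay in exon 8 of 21 at chr3:32881429-32881482 on the plus strand, with the cysteine codon at residue 343 of 858. That of its paralogue Usp5 was in exon 8 of 20 at chr6:124822552-124822605 on the minus strand, and 38 of the 54 bases were the same in both. The box of Usp50 lay in exon 2 of 7 at chr2:126780450-126780503 on the minus strand, with the cysteine codon at residue 54 of 390. Usp12 and Usp46, which both work with the WD-repeat proteins Wdr48 and Wdr20, shared 45 of 54 bases, and Usp16 and Usp45 shared 43. Usp15 shared 38 bases with Usp4 and 39 with Usp11. The boxes of Usp53 and Usp54 scored 9.36 and 10.5 against the profile, below the 49.2 of the lowest member that formed it, and both kept a TGC codon. Usp6nl had no match above 0.

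The other boxes that are whole within 1 exon lay at chr2:126751077-126751130 (Usp8), chrX:13145195-13145248 (Usp9x) and chr9:108495645-108495698 (Usp19) on the plus strand and at chr16:8707662-8707715 (Usp7) on the minus strand. An intron splits the rest, and the bounds given include it. On the plus strand these were chr9:44089159-44090059 (Usp2), chr9:49003935-49008434 (Usp28), chr4:98928307-98928869 (Usp1), chr9:108366831-108367824 (Usp4), chrX:20713349-20713753 (Usp11), chr4:21796881-21797300 (Usp45) and chr16:87469815-87470359 (Usp16). On the minus strand they were chr10:123133124-123146841 (Usp15), chr5:74032476-74037044 (Usp46) and chr5:146763373-146768948 (Usp12).

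Total counts ran from 7880467 to 9938743 per pool, and 3 counts correspond to 0.329 to 0.376 CPM in a pool (counts scaled to a common library size by the TMM method). Correlations of log2 CPM between pools were between 0.953 and 0.971. The groups did not separate on the first principal component, which held 32.4% of the variance: quercetin pools 1 and 2 scored −37.9 and −30.9, control pool 1 −3.34, control pool 3 10.1, quercetin pool 3 30.8 and control pool 2 31.3. The oocyte markers summed to 16726 to 20455 CPM per pool, led by Gdf9 and Oosp1, with Figla near 0 in every pool. The cumulus and granulosa markers summed to 74.3 to 97.9 CPM, most of it Cyp19a1, and 5 of the 15 (Amh, Amhr2, Foxl2, Fst and Ptx3) had no count in any pool. The blood markers summed to 2.81 to 3.61 CPM.

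Most of the family was detected in these oocytes. Of the 56 members, 54 had at least 1 count, 44 passed the count filter and were tested, 38 averaged 5 CPM or more and 11 averaged 100 CPM or more. Together they took 0.499%, 0.483% and 0.471% of all counts in the control pools (0.484% ± 0.0142, SD, n = 3). In the quercetin-treated pools the shares were 0.423%, 0.400% and 0.512% (0.445% ± 0.0596). Quercetin pools 1 and 2 were below all control pools and quercetin pool 3 was above them, so the groups overlapped. The 8 members of highest CPM held 71.1% of the family's CPM.

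Levels were compared between genes as RPKM, the TMM-scaled CPM per kilobase of merged exon length. The order was led by Usp2, which acts on Mdm2, cyclin D1 and clock proteins, at 80.7 ± 9.23 RPKM in control and 82.5 ± 10.7 RPKM in quercetin-treated oocytes (n = 3 each). Usp28, which stabilises Myc and takes part in p53 signalling, followed at 67.2 ± 6.77 RPKM and 76.4 ± 3.56 RPKM. The ranges of the pair overlapped (71.6 to 93.9 RPKM against 59.6 to 79.2 RPKM). Within every pool Usp2 was above Usp28, though only at 72.7 against 72.4 RPKM in quercetin pool 3. Usp15, which acts on receptor-regulated Smads, came next at 45.9 to 53.1 RPKM, below every pool of both.

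Usp14, an enzyme bound to the proteasome that trims chains from its substrates, spanned 34.4 to 46.1 RPKM. Usp7, which acts on Mdm2 and p53, spanned 31.4 to 45.3 RPKM, and Usp9x, an X-linked enzyme of TGF-beta signalling and cell polarity, 28.7 to 43.5 RPKM. Usp19, an enzyme anchored in the endoplasmic reticulum, spanned 25.8 to 36.8 RPKM. The ranges of these 4 overlapped, but Usp14 and Usp7 were each above Usp19 in every pool. The order within the other pairs of the 4 changed between pools. Usp1, which takes ubiquitin off Fancd2 and PCNA, held the eighth place at 21.6 to 32.6 RPKM and overlapped with Usp37, which followed at 22.4 to 30.7 RPKM. With the longest annotated transcript as the length, 7 of these 8 stayed among the 8 highest, but their order changed. Usp16 came to rank 6 and Usp1 fell to rank 11. Usp2 and Usp28 were then nearly level at 101.7 and 101.3 RPKM, as were Usp14 and Usp15 at 71.14 and 71.10 RPKM. Of the 31-base words of Usp1, 31.6% occur in transcripts of other genes, mostly Gm5841, and 26.0% of the Usp14 exon bases overlap Thoc1 on the opposite strand, so reads of these genes could be split or shared.

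Paralogues stood at unequal levels. Usp46 averaged 18.7 RPKM over the 6 pools and its paralogue Usp12 0.371 RPKM, and no Usp46 pool was as low as any Usp12 pool. Usp15 averaged 49.4 RPKM against 5.96 RPKM for Usp11 and 0.598 RPKM for Usp4, and every pool kept this order. Usp28 was at 71.8 RPKM and its paralogue Usp25 at 0.18 RPKM. In the histone H2A and H2B group, Usp22, the ubiquitin protease of the SAGA complex, averaged 2.67 RPKM, while its paralogues Usp51 and Usp27x averaged 3.32 and 0.25 RPKM. Usp16, which acts on H2A in mitosis, was the highest of that group at 20.2 RPKM.

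The question for the treatment was whether any of these stored transcripts differed between control and quercetin-treated oocytes. No member did by the quasi-likelihood test of edgeR, with p-values adjusted by Benjamini and Hochberg's method over the 11842 tested genes. All 44 tested members had an adjusted p of 0.988 or more, against a background of 0.0% of all tested genes at an adjusted p under 0.05, the lowest over all genes being 0.0730. At an unadjusted p under 0.05, there were 3 of the 44 members (6.82%, against 4.03% of all tested genes). Usp13 was the 1 that was higher with quercetin (background 2.14%), and Usp39 and Usp50 were the 2 that were lower (background 1.89%). DESeq2 gave 2 members at an unadjusted p under 0.05 (4.55%, against 3.24% of all tested genes), without Usp50, and no member at an adjusted p under 0.05. Over all tested genes, 17 had an adjusted p under 0.05 by DESeq2 and 18 by the likelihood ratio test of edgeR, so the 0.0% background belongs to the quasi-likelihood test.

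The groups' pools did not overlap for 2 of the 44 members (4.55%), against 10.6% of all tested genes. Usp13 lay above the controls (background 5.42%) and Usp39 below them (background 5.17%). Exact permutation tests gave p = 0.1 for both, which is the lowest value possible with 3 pools in each group. The fitted log2 fold change was below 0 in 29 members (65.9%, against 53.6% of all tested genes), with a median of −0.14 in the family and −0.026 in all tested genes. Without control pool 1 the medians were −0.0185 and −0.0190, so the gap between the family and all genes was absent. The fits with 1 pool left out tested 45 members. Without quercetin pool 2 they were −0.044 and −0.020, and without control pool 2 −0.082 and −0.013. With all pools, the log2 fold change lay within 0.25 of 0 in 30 of the 44. These shares are descriptions of the members and carry no test.

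**Figure D1:**
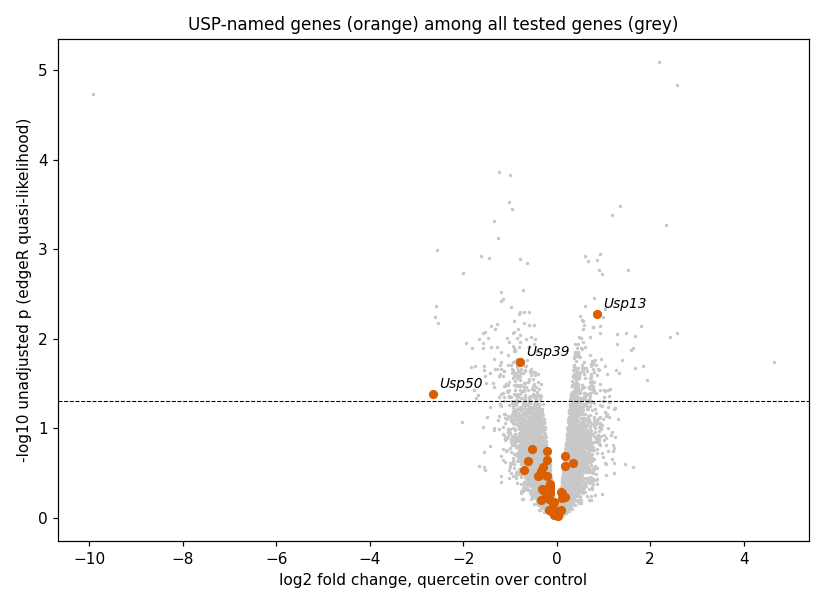
Fitted log2 fold change of quercetin over control against −log10 of the unadjusted edgeR p for all 11842 tested genes (grey) and the 44 tested USP-named genes (coloured). Usp13, Usp39 and Usp50 are the 3 members past an unadjusted p of 0.05, and no gene passes an adjusted p of 0.05.

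Usp13 and Usp5 are paralogues that were placed in the group of free ubiquitin chains and the proteasome. Usp5 recycles free chains to single ubiquitin, and Usp13, which carries the same domains, acts in degradation from the endoplasmic reticulum and in autophagy. Usp13 had 96, 82 and 141 counts in the control pools and 180, 203 and 183 counts in the quercetin-treated pools. On the CPM scale these were 10.8, 9.86 and 15.9 CPM in the control pools and 22.5, 22.3 and 21.5 CPM in the quercetin-treated pools. All 3 quercetin values exceeded all 3 control values, and the quercetin pools lay closer together than the control pools.

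The group means of Usp13 were 12.2 ± 3.24 CPM and 22.1 ± 0.52 CPM (SD, n = 3), a 1.82-fold difference. Its log2 fold change was 0.86 (SE 0.24, 95% interval 0.33 to 1.39, unadjusted edgeR p = 0.0052, adjusted p = 0.988, exact permutation p = 0.1). Leaving out each pool in turn gave log2 fold changes from 0.73 to 1.11, with unadjusted edgeR p-values from 0.0018 to 0.0240.

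Usp5 had 3.25, 3.13 and 3.26 CPM in the control pools and 1.88, 1.54 and 3.88 CPM in the quercetin-treated pools, with quercetin pools 1 and 2 below the control pools and pool 3 above them. Its log2 fold change was −0.40 (SE 0.40). Usp14 had 385, 360.2 and 287 CPM in the control pools and 331, 336 and 319 CPM in the quercetin-treated pools. Its values were within 1.34 times of each other over all pools and its log2 fold change was −0.067 (SE 0.15). Neither Usp5 nor Usp14 had an unadjusted p under 0.05.

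Usp39 belongs to the cell cycle, centrosome and splicing group, and its box without a cysteine codon is printed above. It had 87, 77 and 62 counts in the control pools and 45, 50 and 34 in the quercetin-treated pools, or 9.76, 9.26 and 6.98 CPM in the control pools and 5.64, 5.48 and 4.002 CPM in the quercetin-treated pools. Every quercetin pool was below every control pool. The means were 8.66 ± 1.48 CPM and 5.04 ± 0.903 CPM (SD, n = 3), and the log2 fold change was −0.78 (SE 0.27, 95% interval −1.39 to −0.17, unadjusted edgeR p = 0.0181, adjusted p = 0.988, exact permutation p = 0.1). Without control pool 1 the unadjusted edgeR p was 0.0614, and without control pool 2 it was 0.0523, with log2 fold changes of −0.68 and −0.73.

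Other members of that group did not pass the unadjusted threshold. Usp37, which stabilises cyclin A and is linked to entry into S phase, had 262, 248 and 268 CPM in the control pools and 276, 261 and 340.3 CPM in the quercetin-treated pools, with quercetin pool 3 the highest of all. Usp33, which acts on the centriole protein CP110, held 60.2 to 76.2 CPM over the 6 pools, and 24.4% of its exon bases overlap opposite-strand transcripts. Usp36, a nucleolar enzyme, was among the 5 tested members with fewest reads, with 30, 12 and 20 counts in the control pools and 13, 22 and 14 in the quercetin-treated pools. Usp20, the paralogue of Usp33, fell under the count filter, at 0, 7 and 5 counts in the control and 4, 2 and 8 in the quercetin-treated pools.

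**Figure D2:**
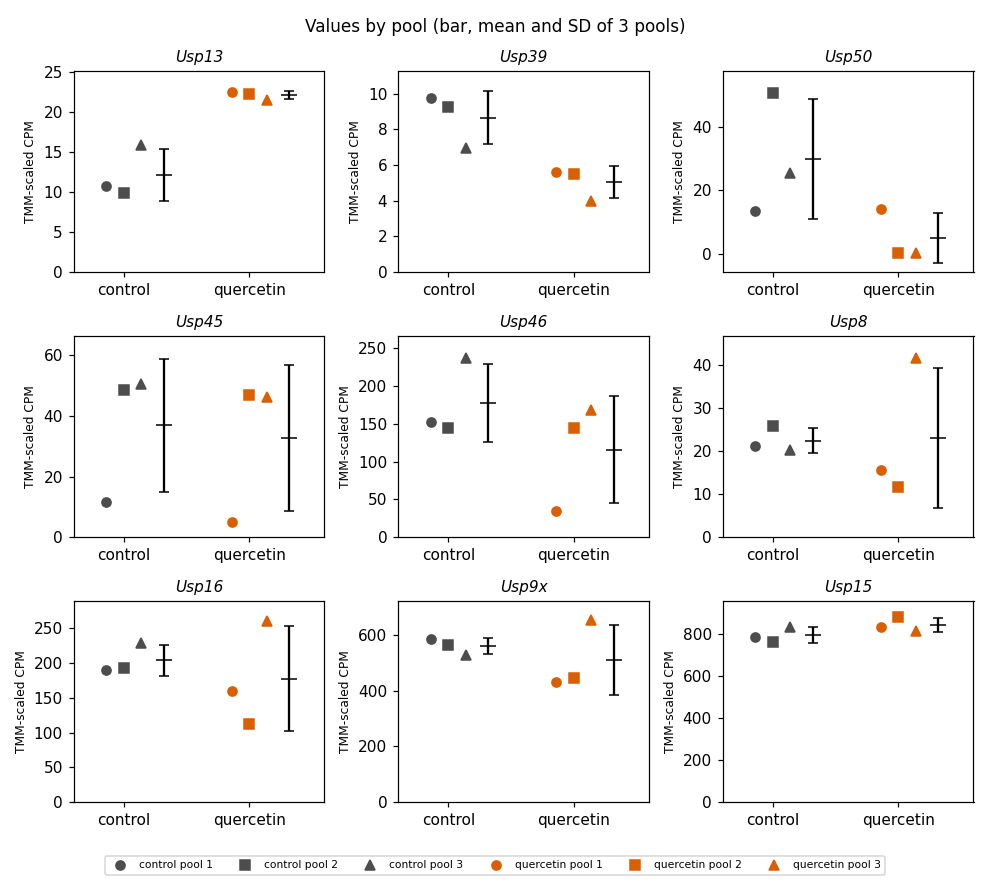
TMM-scaled CPM of selected USP-named genes in each pool, with control in grey, quercetin-treated in orange, and horizontal lines and bars for the mean and SD of 3 pools. Usp13 and Usp39 show no overlap between the groups, while Usp50, Usp45 and Usp46 have single pools far from the rest of their group.

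Usp50 belongs to the germline group, the members known mainly from testis, oocytes or the Y chromosome. It had 120, 423 and 228 counts in the control pools and 112, 3 and 2 counts in the quercetin-treated pools, so that 2 quercetin pools were at or under the floor of 3 counts. On the CPM scale the values were 13.5, 50.9 and 25.7 CPM in the control pools and 14.03, 0.329 and 0.235 CPM in the quercetin-treated pools. Quercetin pool 1 lay above control pool 1, so the groups overlapped.

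The means of Usp50 were 30.0 ± 19.1 CPM and 4.86 ± 7.94 CPM, each with an SD of the same order as the mean. Its log2 fold change was −2.64 (SE 1.11, 95% interval −5.15 to −0.13, unadjusted edgeR p = 0.0413, adjusted p = 0.988, exact permutation p = 0.2). Without quercetin pool 1 the log2 fold change was −6.65 (SE 0.78) and the adjusted edgeR p was 0.0367, so 1 pool decided whether Usp50 passed. The unadjusted p passed 0.05 without control pool 1 (0.0353) and without quercetin pool 1 (2.1e-05), and it missed 0.05 without any other single pool, at 0.0664 to 0.128.

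The Usp50 gene spans chr2:126709096-126783470 on the minus strand and overlaps Usp8 on the plus strand, with no exon base in common. Of its 31-base words, 11.6% occur in other genes, mostly Polr2l and Gm10774. Usp8 itself had 21.3, 25.8 and 20.3 CPM in the control pools and 15.7, 11.7 and 41.7 CPM in the quercetin-treated pools, a pattern unlike that of Usp50, with its highest value in quercetin pool 3. The boxes of Usp50 and Usp8 printed above share 42 of 54 bases.

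Usp29, an imprinted gene expressed from the paternal copy, was the steadiest of the germline group at 37.0 to 48.6 CPM. X-linked Usp26 had 19, 21 and 12 counts in control and 12, 13 and 17 in quercetin-treated pools. The 5 Usp17l genes were at 0 to 6 counts in any pool and 31.02% to 65.7% of their 31-base words occur in other genes, so their few reads cannot be assigned firmly. Usp17le, the highest of them by total counts, had 2, 5 and 6 counts in control and 0, 0 and 6 in quercetin-treated pools. Usp17la and the Y-linked Usp9y had no count in any of the 6 pools. For Usp17la this allows up to 0.376 CPM in a pool for counting error only, while the females used carry no Y chromosome.

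The histone group holds 8 members, of which 7 were tested and none reached an unadjusted p under 0.05. Their fitted log2 fold changes were below 0 in 6 of the 7, against 53.6% of all tested genes, a description that carries no test. They ran from −0.70 for Usp27x to 0.031 for Usp22. Usp16 had 190.4, 192 and 229.5 CPM in the control pools and 160.0, 112 and 260.1 CPM in the quercetin-treated pools. Usp3, which acts on H2A and H2B, had 22.8, 27.4 and 23.5 CPM in the control pools and 17.5, 12.0 and 28.7 CPM in the quercetin-treated pools. In both, quercetin pools 1 and 2 were under all control pools and quercetin pool 3 was over them.

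Usp21, another H2A enzyme, ranged over 12.5 to 26.0 CPM, and Usp51 over 4.36 to 9.65 CPM. Usp27x, the tested member with fewest reads, had 16, 7 and 12 counts in the control pools and 2, 6 and 13 in the quercetin-treated pools. Usp49, an H2B enzyme, ranged from 1.082 CPM in control pool 2 to 12.2 CPM in control pool 1, and 51.2% of its exon bases overlap Gm20517 on the same strand. Usp44, an H2B enzyme that also guards the spindle checkpoint, did not pass the count filter. It had 4, 0 and 7 counts in the control pools and 15, 9 and 9 in the quercetin-treated pools, so that the groups did not overlap at these low counts.

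All 10 members that act in DNA repair, replication and the p53 network were tested, none with an unadjusted p under 0.05. Their log2 fold changes ran from −0.35 for Usp10, an enzyme that acts on p53, to 0.35 for Usp47, which acts on DNA polymerase beta. Usp2 had 388, 345 and 434 CPM in the control pools and 453, 389.7 and 350.4 CPM in the quercetin-treated pools. Usp28 had 423, 348 and 404 CPM in the control pools and 462, 453 and 422 CPM in the quercetin-treated pools. Neither gene varied by more than 1.33 times between its lowest and highest pool.

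Usp7 had 316, 339 and 265 CPM in the control pools and 278, 244 and 351 CPM in the quercetin-treated pools, with a log2 fold change of −0.0756 (95% interval −0.47 to 0.32). Usp1 had 122, 85.2 and 96.5 CPM in the control pools and 100.5, 80.6 and 91.9 CPM in the quercetin-treated pools, with its highest value in control pool 1. For these 4 abundant members the 95% intervals of the log2 fold change lay between −0.56 and 0.49, so a difference of 2-fold in either direction was outside each interval.

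Usp45, which acts on the repair nuclease subunit Ercc1, had 11.7, 48.4 and 50.6 CPM in the control pools and 5.01, 46.8 and 46.3 CPM in the quercetin-treated pools. Both pools numbered 1 were low and the other 4 pools were close together, in each group alike. It was the 1 member in which both replicate 1 pools were under 0.5 times every other pool, a pattern seen in 0.422% of tested genes and chosen after the values were seen. Its group means, 36.9 ± 21.9 CPM and 32.7 ± 24.0 CPM, differed by less than the spread between pools. Usp4 had 4.94, 5.77 and 5.06 CPM in the control pools and 2.76, 2.41 and 10.0 CPM in the quercetin-treated pools, close together in control and spread over 4.15 times in the quercetin-treated pools. Usp11, which acts on Brca2, ranged over 20.6 to 35.2 CPM. Usp48, which removes ubiquitin placed on H2A by Brca1, ranged over 15.1 to 31.1 CPM, Usp47 over 19.4 to 46.5 CPM and Usp10 over 5.92 to 16.4 CPM.

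All 6 members of the endosome, membrane receptor and organelle group were tested and none had an unadjusted p under 0.05. Usp46, which regulates glutamate receptors with its Wdr partners, had 153, 144 and 237 CPM in the control pools and 34.7, 144 and 169 CPM in the quercetin-treated pools. Quercetin pool 1 was far under the next lowest pool, and the other 5 pools of both groups overlapped. Its log2 fold change was −0.62 (SE 0.48, 95% interval −1.69 to 0.46), and it was −0.18 (SE 0.25) without quercetin pool 1 and −0.99 (SE 0.53) without quercetin pool 3. Usp12 had 14, 16 and 16 counts in control and 10, 13 and 20 in quercetin-treated pools.

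Usp19 had 259, 238 and 219.7 CPM in the control pools and 243, 198 and 181 CPM in the quercetin-treated pools. Usp30, the USP of the outer mitochondrial membrane that opposes mitophagy, had 62.2, 49.9 and 51.0 CPM in the control pools and 57.4, 44.8 and 39.9 CPM in the quercetin-treated pools. Its means were 54.3 ± 6.80 CPM and 47.3 ± 9.02 CPM (SD, n = 3), and the difference was within the spread between pools (log2 fold change −0.20, SE 0.20). Usp32, an enzyme of the Golgi and endosomes, held 24.9 to 35.1 CPM. Usp8, the endosomal enzyme that returns receptors from degradation, was given above beside Usp50.

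The signalling group held the member that took the most counts of the family, Usp15. It had 787, 762 and 835 CPM in the control pools and 836, 881 and 815 CPM in the quercetin-treated pools, all within 1.16 times of each other, and a log2 fold change of 0.0864 (95% interval −0.20 to 0.37). Usp9x had 587, 565 and 529 CPM in the control pools and 431, 445 and 655 CPM in the quercetin-treated pools. Quercetin pools 1 and 2 were below all control pools and pool 3 was above them, and the means were 511 ± 126 CPM in the quercetin group and 560.1 ± 29.2 CPM in the control group (SD, n = 3). Of its 31-base words 7.35% occur in other genes.

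Usp34, which acts on axin in Wnt signalling, ranged over 139.8 to 199 CPM, and Usp31, linked to NF-kappaB, over 24.9 to 33.7 CPM. The remaining signalling members were under the count filter. Usp25, which acts on TRAF adaptor proteins, had 10, 0 and 3 counts in control and 13, 8 and 14 in quercetin-treated pools. Usp18, which removes the ubiquitin-like protein ISG15 after interferon, had 1 count in all, in quercetin pool 2.

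Of the 9 less characterised members, 7 were tested, none with an unadjusted p under 0.05. Usp53, whose box departs from the profile and which is known from tight junctions, held 87.6 to 103 CPM, and its 1.17-fold range over the pools was the second narrowest of the family after Usp15. Its paralogue Usp54 held 6.36 to 11.9 CPM. Usp38 held 59.8 to 99.3 CPM, Usp42 15.4 to 26.5 CPM, Usp24 10.5 to 24.1 CPM and Usp43 4.69 to 11.6 CPM. Usp6nl held 2.93 to 4.50 CPM, and leaving it out moved the family's median log2 fold change from −0.135 to −0.137. Exon bases overlapped a gene on the opposite strand over 20.5% of Usp38, 14.3% of Usp29, 12.8% of Usp43 and 11.6% of Usp34. Below the filter, Usp40 had 9, 0 and 16 counts in control and 2, 9 and 5 in quercetin-treated pools, and Usp35 had 3 counts in all, in control pool 2.

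**Figure D3:**
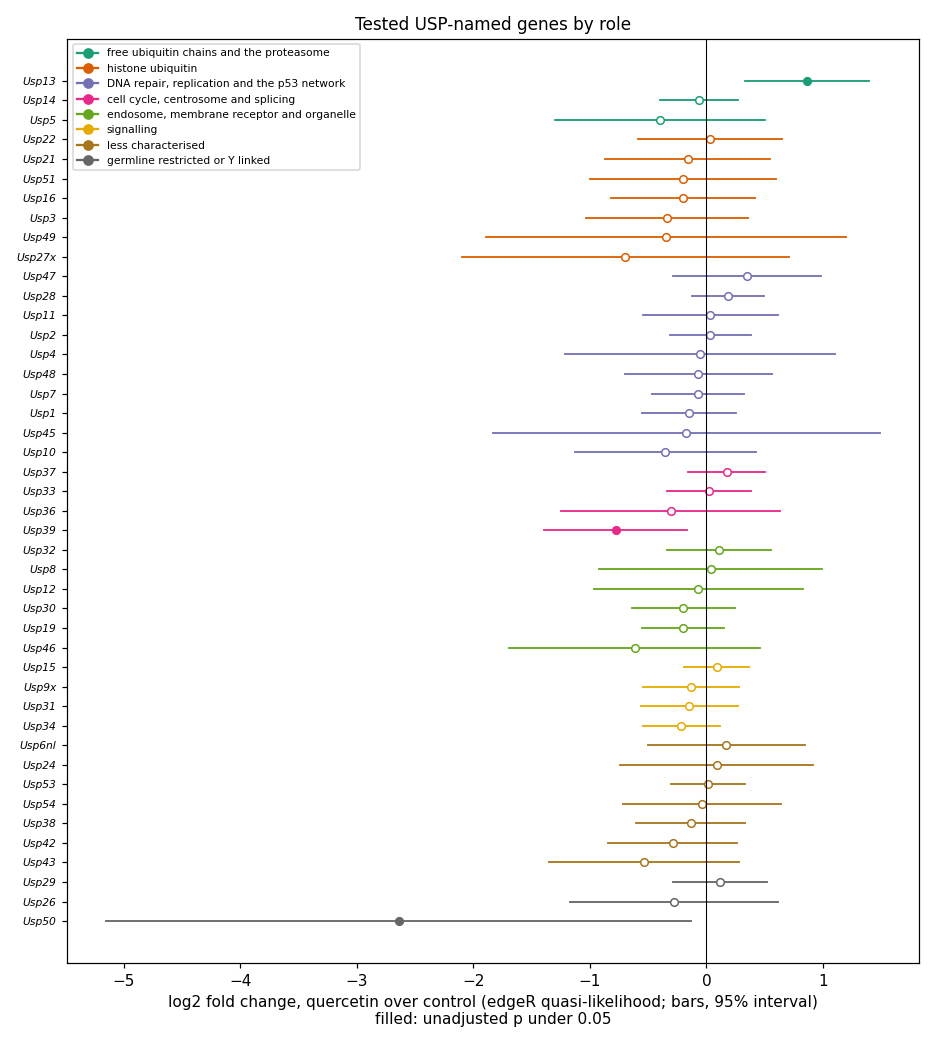
Fitted log2 fold change (quercetin over control) of the 44 tested USP-named genes with 95% intervals from edgeR's quasi-likelihood fit, grouped by role, with filled points at an unadjusted p under 0.05. Of the 44 intervals only those of Usp13, Usp39 and Usp50 leave out 0, and 30 points lie within 0.25 of it.

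In 6 of the 38 members at 5 CPM or more (Usp50, Usp49, Usp45, Usp46, Usp4 and Usp8, chosen after their values were seen) the highest pool was over 3 times the lowest, against 9.14% of all tested genes at that level. The median ratio of highest to lowest pool was 1.74 in the 38 members and 1.65 in all such genes. Quercetin pools 1 and 2 were below all controls, with quercetin pool 3 above them, in 7 tested members (Usp3, Usp4, Usp5, Usp8, Usp9x, Usp12 and Usp16), against 6.12% of all tested genes. This pattern too was chosen after the values were seen. Quercetin pool 3 also lay far from the other quercetin pools on the first principal component, and the part of that difference in these values was not tested.

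Without quercetin pool 3, 8 of 45 tested members (17.8%) had an unadjusted edgeR p under 0.05, namely Usp13, Usp39, Usp3, Usp4, Usp5, Usp8, Usp9x and Usp16. All of these but Usp13 and Usp39 belong to the pattern above. For them, leaving out that pool separates the groups by construction. The background without that pool was 12.8% of 12258 tested genes, and no member passed an adjusted p of 0.05. Over the 44 members, the lowest value fell in quercetin pool 2 in 14, and the highest fell in control pool 1 in 17 and in quercetin pool 3 in 13.

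Other lists from the same pathway were set beside the family. A fixed list of deubiquitylases and related genes that the name rule leaves out held 38 genes, Cyld, Uspl1, Pan2 and Cops5 among them. Of these, 33 were tested, with a median log2 fold change of 0.0063. In 2 of them (6.06%, against 4.03% of all tested genes in either direction) the unadjusted edgeR p was under 0.05. Both were higher with quercetin (background 2.14%). Zup1, which cuts K63-linked chains at sites of DNA damage, had 321, 254 and 317 CPM in the control pools and 389.6, 447 and 357 CPM in the quercetin-treated pools (log2 fold change 0.42, edgeR p = 0.0238, exact permutation p = 0.1). Mindy3, which prefers K48-linked chains, had 151, 135 and 108 CPM in the control pools and 163, 192 and 170.1 CPM in the quercetin-treated pools (log2 fold change 0.41, edgeR p = 0.0331, exact permutation p = 0.1). Their pools did not overlap between the groups, nor did those of Otud6b and Atxn3. These made 4 of 33 (12.1%, against 10.6% of all tested genes in either direction), all higher with quercetin (background 5.42%). The next by p were Otud6b, of the OTU class, and Mysm1, which acts on H2A, with log2 fold changes of 0.33 and 0.32 and edgeR p-values of 0.0543 and 0.0868.

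Of 12 partner subunits of USPs, 8 were tested and none had an unadjusted edgeR p under 0.05. Wdr20, which activates Usp12 and Usp46, averaged 594 ± 66.1 CPM in control and 702 ± 26.3 CPM in quercetin-treated oocytes (log2 fold change 0.24, edgeR p = 0.113, exact permutation p = 0.1). Dmwd, a relative of Wdr20, had a log2 fold change of −0.39. Sart3, which recruits Usp4 and Usp15 to the spliceosome, had −0.30, and Gmps, the GMP synthetase that binds Usp7, had −0.29. For Gmps the quercetin pools were at 38.2, 28.2 and 86.6 CPM against 55.7, 63.4 and 68.1 CPM in control, so that pools 1 and 2 lay below the controls and pool 3 above them, as in Usp9x.

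Of 6 ubiquitin and E1 genes, 5 were tested, with no unadjusted edgeR p under 0.05. The polyubiquitin gene Ubb had 657, 659 and 805 CPM in the control pools and 866, 905 and 748 CPM in the quercetin-treated pools, a log2 fold change of 0.25 (edgeR p = 0.127, exact permutation p = 0.2). Uba1, the main ubiquitin-activating enzyme, had a log2 fold change of −0.27, and Uba6, the other E1 for ubiquitin, 0.11. The 95% intervals of Ubb, Uba1 and Uba6 included 0.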

How the data were processed

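Gene counts of 6 pools of MII oocytes (3 control, 3 quercetin-treated) were used, with groups and replicate numbers from the sample labels. The deposited counts were whole-number reads per Ensembl gene, not normalized and not pooled by the authors. Per the study's methods reads were aligned with Hisat2 to GRCm38, while the submitters' processing notes name CASAVA 1.8 and TopHat2 2.0.6. The program that counted the reads, and how it treated strand and reads with several matches, are not given in the sources used here, so shares of exon bases that overlap another gene and of 31-base words found in other genes are given where they are large.

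Symbols, lengths, coordinates and coding sequences came from GENCODE M21 (GRCm38), which matched 53360 of 53465 identifiers and all 56 members. Counts were scaled by TMM and tested with edgeR 4.0.16 (glmQLFit and glmQLFTest, filterByExpr with a minimum count of 10, no covariate) in R 4.3.3. All 11842 tested genes entered the Benjamini-Hochberg correction. By this test no gene met the study's criteria, a fold change over 2 together with an adjusted p under 0.05. The study itself reported genes in both directions at these criteria. A standard error is the log2 fold change divided by the square root of its F statistic, and 95% intervals use the degrees of freedom of the fit. Exact permutation tests were two-sided. Nothing states that the oocytes of the pools came from separate cultures, so p-values measure the spread between these pools. Floors of 3 counts cover counting error only.

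The members, roles and lists were chosen with earlier results of these data known. The rule for members given in every pool took those with an unadjusted p under 0.05, those whose pools did not overlap at 5 CPM or more, the 8 highest in RPKM and the 5 on each side of the count filter. Usp3, Usp4, Usp8, Usp16, Usp30, Usp37, Usp45 and Usp46 were added after their values were seen. Of each other list the 4 genes with the smallest p were named, some by their fold change alone, and 1 of them is not reported here. The results were recomputed with DESeq2 1.42.0, with the likelihood ratio test of edgeR, with voom of limma 3.58.1, with 2 other scalings and 2 other filters, with each pool left out, with the longest transcript as length, and with the replicate number as a block. The family without Usp6nl was added after the data were seen. Simulated counts with known changes were used to test the fit. Plots used matplotlib 3.10.9.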

Additional observations from a re-analysis of the deposited data

How the results depend on the processing

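With 3 pools a group, the family was compared at a common biological coefficient of variation of 0.269, and the widest 95% intervals belonged to members with few reads or with 1 pool far from the rest. No member passed an adjusted p of 0.05 under any other test, scaling or filter. Leaving out each pool in turn gave 0 to 1 such members, the 1 being Usp50 without quercetin replicate 1. It gave 2 to 8 of 45 members at an unadjusted p under 0.05, against 1.98% to 12.8% of all tested genes, and 5 to 15 members without overlap between the groups, against 16.2% to 31.4% of all tested genes, since fewer pools overlap less. The highest counts and shares were those without quercetin replicate 3. The other scalings and filters gave 3 members without overlap, against 7.76% to 11.2% of all tested genes, and these included Usp13 and Usp39 each time. Of the 33 other deubiquitylases and related genes, 1 had an unadjusted edgeR likelihood ratio p under 0.05 (3.54% of all tested genes). That count was 1 with library size only (4.28%) and 0 to 6 with each pool left out, the 6 being without quercetin replicate 3 (12.8%). With library size only the median log2 fold change of all tested genes was −0.111 and that of the family −0.215, and Usp2 turned to −0.056. The family median was −0.082 with at least 10 counts in every pool, against −0.022 for all genes, and ran from −0.158 to −0.0185 with each pool left out.

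Single members near 0 changed sign when a pool was left out, with log2 fold changes from −0.071 to 0.13 for Usp2, −0.26 to 0.0039 for Usp1, −0.39 to 0.096 for Usp12, −0.17 to 0.023 for Usp14, −0.56 to 0.041 for Usp36 and −0.23 to 0.038 for Usp7. Usp50 was at −2.61 with an unadjusted p of 0.103 by DESeq2 and at −4.55 by limma-voom, and it was not tested where at least 10 counts in every pool were required. Usp13 and Usp39 kept their direction and an unadjusted p under 0.05 under every other test, scaling and filter. The cause of these changes was not tested.

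Replicate numbers were not taken as pairs. Same-numbered pools deviated from their group means with correlations of 0.296, 0.101 and −0.0303, and differently numbered pools with −0.299 to 0.176. The pools numbered 1 thus had the highest value, and an effect shared by them was not tested. With the replicate number as a block, 3 of 44 members had an unadjusted edgeR p under 0.05, against 4.15% of all tested genes, none passed an adjusted p of 0.05, and the family's median log2 fold change was −0.146.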
